A study of Mus musculus with 6 samples.

Results

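The genes with symbols from Zfp800 to Zfp999 were examined in mouse embryonic stem (ES) cells that lack Morc3. The members were all gene rows with such a symbol and no further letter whose sense-strand counts summed to 30 or more over the 6 libraries. 55 of 58 rows with such symbols met this rule, out of 24054 gene rows in all. The rule itself uses no measure of the difference between genotypes, but it was set with earlier results of these data known. The values just inside the limit were a sum of 40 for Zfp964 and 90 for Zfp939, and those just outside were 26 for Zfp872, 1 for Zfp831 and 0 for Zfp957.

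RNA was sequenced from 3 ES cell lines with a Morc3 knock-out (ko) and from 3 cultures of the wild-type line wt26, called p42, p43 and p56 after their titles. Per the methods of the study, each ko line (KO27-1, KO27-2 and KO27-3) was a single clone made from wt26 with Cas9 and guide RNA against Morc3, after transient puromycin selection. All cells grew without feeders on gelatin in serum and LIF. The labels do not say what the letter p stands for. The question of the comparison was which genes depend on Morc3, an ATPase that the study examined as a silencing factor of endogenous retroviruses.

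Most mouse genes of this kind encode proteins with arrays of C2H2 zinc fingers, and many carry a KRAB domain at the amino end. Each finger holds a zinc ion between a pair of cysteines and a pair of histidines, and a row of fingers reads a stretch of DNA. The KRAB domain recruits Trim28, which brings in the histone methyltransferase Setdb1 and heterochromatin proteins, and this pathway keeps many retroviral elements silent in ES cells. The genes often stand in clusters of recent duplicates.

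The coding sequences showed the same build in most members. 54 of 55 members had a coding transcript in GENCODE M21, with a median protein length of 521.5 residues and a median of 11 fingers by pattern search. 34 members had 10 or more fingers. Zfp839 and Zfp935 had 0 by this pattern. A KRAB pattern was found in 25 members, and a wider pattern, chosen after the values were seen, was found in 37. The first finger that was followed by a canonical linker is shown for the 3 members that passed the test between genotypes, for Zfp961, which came next to them, and for Zfp809 and Zfp932, which are known to silence retroviral elements. Each is given 5′ to 3′ on the coding strand of GRCm38, 78 bases long, with the codons of the zinc-binding cysteines and histidines in capitals, and the last 15 bases are the linker to the next finger.
Zfp958 (chr8:4628541-4628618, plus strand): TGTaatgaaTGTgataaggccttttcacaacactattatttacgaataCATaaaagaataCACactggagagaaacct
Zfp951 (chr5:104815090-104815167, minus strand): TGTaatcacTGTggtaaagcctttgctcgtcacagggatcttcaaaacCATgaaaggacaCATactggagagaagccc
Zfp808 (chr13:62171445-62171522, plus strand): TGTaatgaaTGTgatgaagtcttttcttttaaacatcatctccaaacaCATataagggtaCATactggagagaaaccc
Zfp961 (chr8:71968410-71968487, plus strand): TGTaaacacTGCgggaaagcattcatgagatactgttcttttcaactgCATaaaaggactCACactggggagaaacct
Zfp809 (chr9:22239019-22239096, plus strand): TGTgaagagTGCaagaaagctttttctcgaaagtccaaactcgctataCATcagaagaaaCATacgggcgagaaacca
Zfp932 (chr5:110008837-110008914, plus strand): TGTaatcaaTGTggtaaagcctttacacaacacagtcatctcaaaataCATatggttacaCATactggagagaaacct

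All 6 stretches lie within 1 coding exon. Over the 47 members with such a finger, the identity between the 78 bases had a median of 61.5% over 1081 pairs and ran from 44.9% to 96.2%, the highest being that of Zfp942 and Zfp944. Zfp958 and Zfp808 were identical at 74.4% of the bases, and Zfp958 and Zfp961 at 67.9%. The linker was often the same. Among 312 linkers of the members there were 90 distinct words of 15 bases, and 72 of the linkers (23.1%, in 18 members) read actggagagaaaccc, which is the linker of Zfp808 above.

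This likeness bears on the counts, because STAR, the aligner that made the counts, leaves out read pairs that map to more than 1 place. For each member, the share of 50-base words of its longest coding transcript that also occur in transcripts of other genes was computed. The median was 2.09%, 7 members shared no word, and 12 members shared over 20%. Zfp960 shared 82.7%, most of it with Zfp97, and Zfp932 shared 55.5%, most of it with Gm15446. For Zfp935, all words also occurred in transcripts of other genes. Zfp808 shared 43.1%, and its longest identical run with Zfp934 was 200 bases. Zfp958 shared 0.648% and Zfp951 shared 1.20%, and Zfp961 and Zfp809 shared none. The search took transcripts of any other gene on either strand and did not set apart genes that overlap a member at the same place. There, a shared word need not map to more than 1 place. The share is therefore no direct measure of lost reads. How far the values of the 12 genes with over 20% are affected was not tested, and they remain uncertain.

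The promoters of the members were poorer in CpG than those of most tested genes. RefSeq promoter sequences of GRCm38.p6 were matched by symbol for 50 of 55 members, and the 250 bases before each start were searched. 14 of 50 members (28.0%) had a CpG-rich promoter, defined as GC of at least 50% with an observed over expected CpG ratio of at least 0.6, against 69.9% of tested genes with a promoter sequence and 53.8% of Zfp1 to Zfp799. The word CCAATCA, read on both strands and chosen after the sequences were seen, was found in 23 of 50 members (46.0%), against 11.8% of tested genes, 13.1% of Zfp1 to Zfp799 and 9.53% of all gene rows with a promoter sequence. The shorter word CCAAT, which is contained in it, was found in 70.0% of members and 41.2% of tested genes. Members that are recent duplicates of each other are not independent in such a count, and a match is only a match of letters. The 30 bases around the word are shown on the strand of the gene for the 3 called members and Zfp961, with the word in capitals.
Zfp958 (chr8:4613094-4613123, plus strand): agactcattggCCAATCAggttctccagga
Zfp951 (chr5:104860111-104860140, minus strand): agattcactgtCCAATCAgagtctccatat
Zfp808 (chr13:62129836-62129865, plus strand): agtctcactaaCCAATCAgggcctccggat
Zfp961 (chr8:71951013-71951042, plus strand): agcagagccgtCCAATCAgcagcgggaagc

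The word stood 65, 61, 43 and 42 bases before the nearest start in the promoter table of Zfp958, Zfp951, Zfp808 and Zfp961. Some of these starts lie inside the RefSeq span of the gene, which begins further upstream, so that the searched windows reached into the span by 33 bases for Zfp808, by 18 for Zfp961 and by 89 and 130 for the starts of Zfp951, whose word lies within it. The 250 bases before the first start of Zfp958 and before the tabled start of Zfp961 (the last 18 of them inside its span) show a promoter of each kind, with each CG in capitals. The first holds 6 CG with a GC content of 52.4% and was not CpG-rich, at an observed over expected ratio of 0.350. The second holds 15 CG with a GC content of 58.0% and was CpG-rich, at a ratio of 0.719.
Zfp958 (chr8:4612920-4613169, plus strand): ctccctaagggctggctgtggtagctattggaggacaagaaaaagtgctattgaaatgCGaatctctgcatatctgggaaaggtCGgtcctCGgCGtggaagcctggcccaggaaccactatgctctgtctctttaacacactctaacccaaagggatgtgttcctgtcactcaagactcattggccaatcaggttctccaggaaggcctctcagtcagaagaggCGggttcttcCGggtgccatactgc
Zfp961 (chr8:71950816-71951065, plus strand): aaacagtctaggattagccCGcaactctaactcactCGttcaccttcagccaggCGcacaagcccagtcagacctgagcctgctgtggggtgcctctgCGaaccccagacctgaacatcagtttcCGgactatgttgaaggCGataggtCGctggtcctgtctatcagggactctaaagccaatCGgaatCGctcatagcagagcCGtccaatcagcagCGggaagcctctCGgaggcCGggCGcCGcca

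The libraries held 10740618 to 11525164 sense counts in ko and 13013286 to 14123131 in wild type, and the members summed to 13863 to 17574 counts per library. Morc3 itself was lower in ko by 1.28 on the log2 scale (SE 0.16, adjusted p = 8.43e-04, edgeR). Summed markers of pluripotent cells (8 genes, among them Pou5f1 and Nanog, none at 0) came to 6029 to 6143 CPM in ko and 5520 to 5641 CPM in wild type, where CPM is the count scaled to a common library size with TMM factors. Of these, Dppa5a had means of 1369 CPM in ko and 1017 CPM in wild type (adjusted p = 0.0231, edgeR), and Zfp42 had 1463 and 1316 CPM. Pou5f1 had 1165 and 1135 CPM and Nanog had 251 and 235 CPM, and the means of Sox2 and Tdgf1 were lower in ko. Fibroblast markers (6 genes, with Dcn at 0 in all libraries) came to 7.06 to 8.32 CPM in ko and 11.8 to 12.7 CPM in wild type. Most of this sum was Thy1, with means of 4.80 CPM in ko and 8.71 CPM in wild type (adjusted p = 0.0064, edgeR). Pdgfrb had 2.24 CPM in ko and 3.01 CPM in wild type. Col1a1 had 0.48 CPM in ko and 0.31 CPM in wild type, and Col1a2 and Col3a1 were lower still in both groups. The lists for endoderm, neural cells and mesoderm stayed at or below 2.16 CPM. The part of these marker lists in the results was not tested. In bulk RNA, fewer cells with a transcript and less transcript per cell cannot be told apart. The ko libraries are separate clones and the wild-type libraries are cultures of 1 line, so that p-values measure the spread between these samples.

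Transcript levels of the members were compared per length, as RPKM (CPM per kilobase of annotated exon). In wild-type cells they ranged 507-fold, with a median of 3.80 RPKM, and 47 of 55 members were above 1 RPKM in all 3 wild-type libraries. Zfp869 was the highest at 41.4 ± 5.67 RPKM (SD, n = 3), followed by Zfp961 at 25.6 ± 2.40, Zfp958 at 25.4 ± 3.44, Zfp830 at 22.8 ± 0.264 and Zfp936 at 20.5 ± 2.55 RPKM. The annotated exons of Zfp869 (1590 bases) hold only the coding sequence of its 529 residues, so that its rank depends on the annotation. By mean wild-type CPM it had 65.8, below Zfp850 at 118, Zfp961 at 111, Zfp930 at 73.9 and Zfp936 at 67.1 CPM. Zfp830, which the early embryo needs, has 1 finger by the pattern. The lowest was Zfp964 at 0.0816 ± 0.0449 RPKM, which did not pass the filter on low counts, and the lowest tested members were Zfp939 at 0.484, Zfp879 at 0.577, Zfp951 at 0.853, Zfp865 at 0.891 and Zfp846 at 0.904 RPKM. In the order of levels, 47 of 54 neighbouring pairs overlapped in their wild-type values, so that the order within a stretch of neighbours is not resolved. The order was nearly the same in ko, with Spearman's rho of 0.992 over the 55 members (a description over genes of the same libraries).

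**Figure D1:**
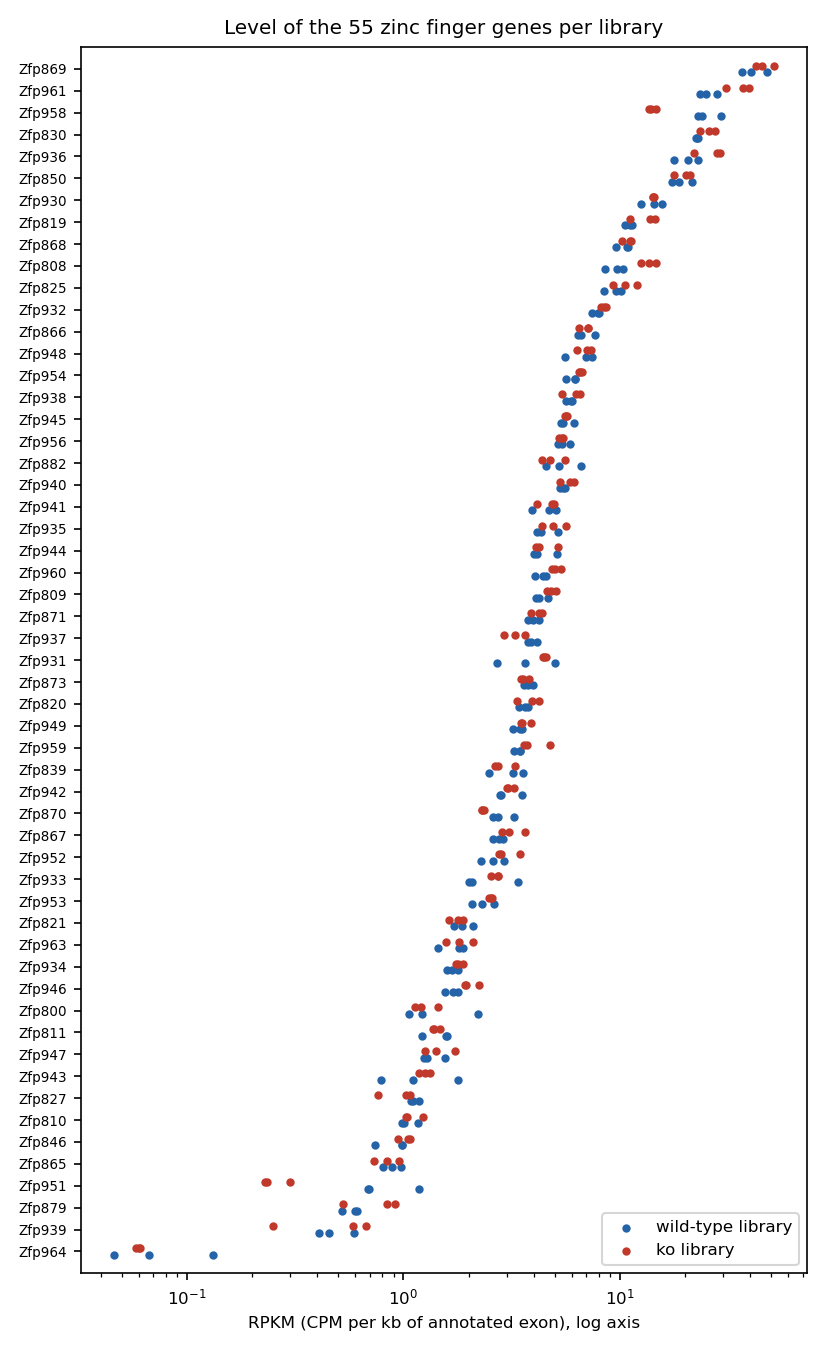
Level of the 55 members in each library, as RPKM on a log axis, ordered by the wild-type mean. Blue points are the 3 wild-type libraries and red points the 3 ko libraries. Per annotated exon length, Zfp869 was the highest at 41.4 RPKM in wild type, and the ko points of Zfp958 and Zfp951 lie to the left of their wild-type points.

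54 of 55 members passed the filter on low counts and entered the test of ko against wild type. 3 of these 54 (5.56%) were called at an adjusted p under 0.01 (edgeR quasi-likelihood test with Benjamini-Hochberg adjustment over 12222 genes), beside 1.28% of all tested genes. Zfp958 and Zfp951 fell in ko, beside 0.417% of tested genes called lower, and Zfp808 rose, beside 0.859% called higher. The other 51 members were not called, and 44 of 54 members had a fitted change under 0.25 in size on the log2 scale.

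**Figure D2:**
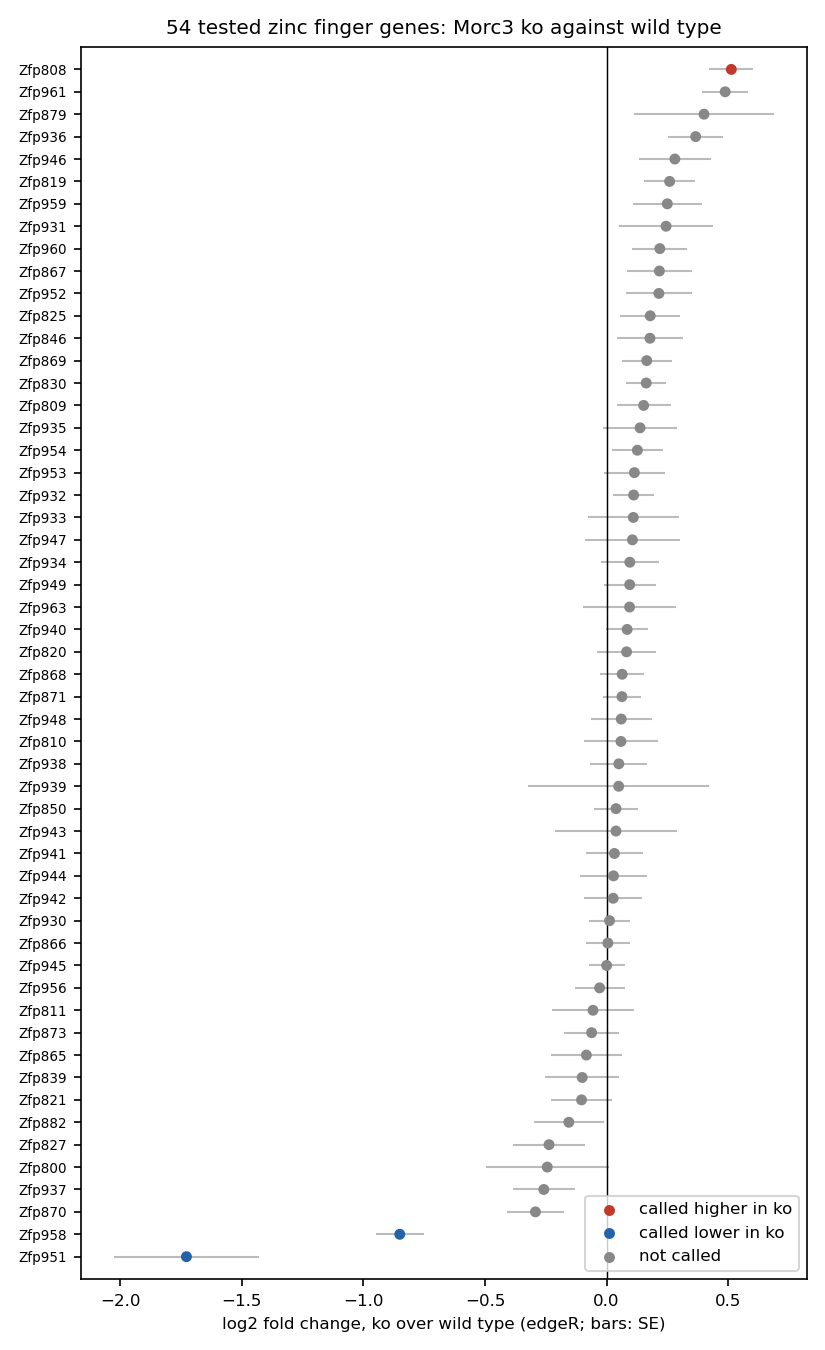
Fitted log2 fold change of ko over wild type for the 54 tested members, with bars of 1 SE, ordered by size. Zfp951 at -1.73 and Zfp958 at -0.85 (blue, called lower) stand apart from the rest, and Zfp808 at 0.51 (red, called higher) lies beside Zfp961 at 0.49, which was not called.

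Zfp958, with 13 fingers and a KRAB pattern, lies on chromosome 8 (4613170 to 4632572, GRCm38, plus strand). Its level was 34.6, 32.9 and 32.2 CPM in ko clones 1, 2 and 3 and 56.6, 54.05 and 69.3 CPM in p42, p43 and p56. All ko libraries lay below all wild-type libraries, and the ko clones were close to each other. The mean was 33.2 ± 1.20 CPM in ko and 60.0 ± 8.14 CPM in wild type (SD, n = 3), a log2 fold change of -0.85 (SE 0.10, adjusted p = 4.76e-04, edgeR). Of the 16 alternative fits, all 16 called it.

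Zfp951, with 10 fingers, lies on chromosome 5 (104802246 to 104860157, minus strand). It was a low transcript, with 12, 16 and 12 counts in ko and 45, 47 and 72 counts in wild type. These are 1.11, 1.41 and 1.09 CPM against 3.26, 3.29 and 5.56 CPM, so that the groups did not overlap and p56 stood above the other wild-type libraries. It fell by 1.73 on the log2 scale (SE 0.30, adjusted p = 0.0080, edgeR), which was the largest fitted change among the members. 12 of 16 alternative fits called it, and the adjusted p reached 0.0686.

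Zfp808, with 22 fingers, lies on chromosome 13 (62129857 to 62173938, plus strand). Its level was 59.0, 64.7 and 69.2 CPM in ko clones 1, 2 and 3 against 45.9, 40.5 and 48.9 CPM in p42, p43 and p56. The groups did not overlap. The mean rose from 45.1 ± 4.27 CPM to 64.3 ± 5.07 CPM (SD, n = 3), a log2 fold change of 0.51 (SE 0.09, adjusted p = 0.0087, edgeR). 11 of 16 alternative fits called it, with an adjusted p of up to 0.0787, and its shared sequence (above) limits what the counts say about this gene alone.

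Zfp961 on chromosome 8 (71951048 to 71970333, plus strand) had a change of like size at a higher level and was not called. It had 134, 171 and 161 CPM in ko clones 1, 2 and 3 and 108, 102 and 122 CPM in p42, p43 and p56. The groups did not overlap, and the log2 fold change was 0.49 (SE 0.10, adjusted p = 0.0168, edgeR). DESeq2 called it, as did 3 other of the 16 alternative fits. Beside the 4 members that DESeq2 called, its background was 1.79% of the genes it tested.

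**Figure D3:**
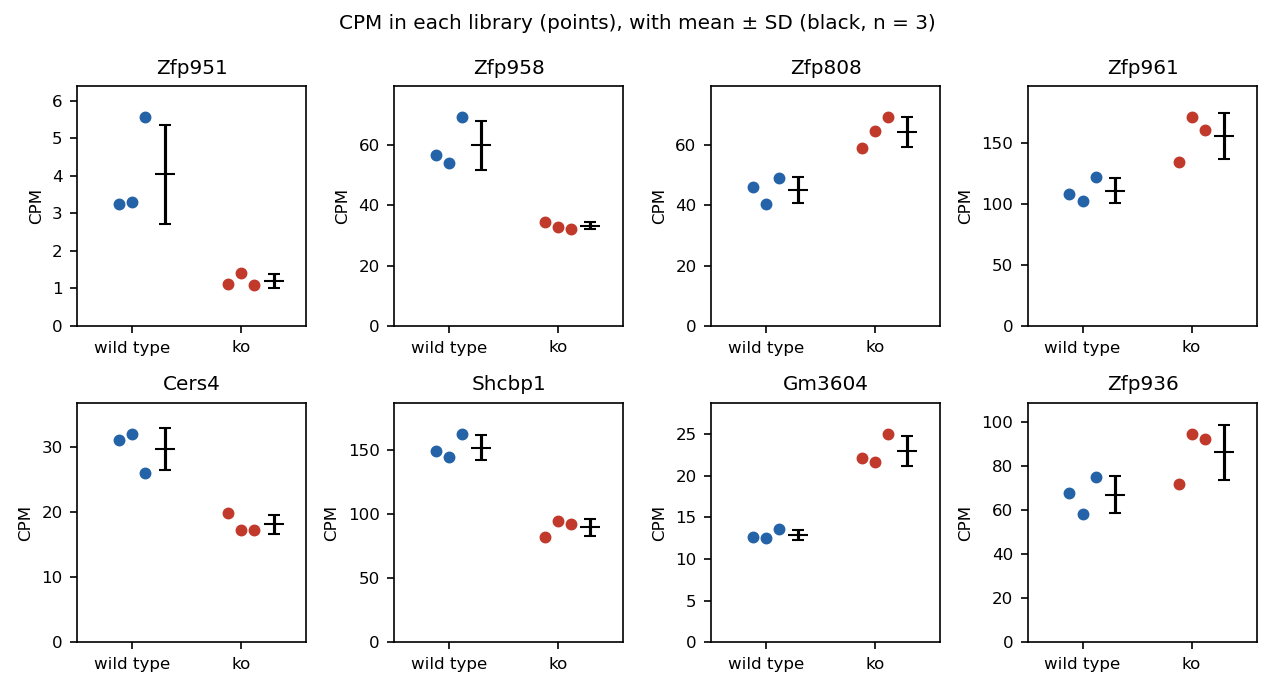
CPM of Zfp951, Zfp958, Zfp808, Zfp961 and Zfp936 and of the neighbouring genes Cers4, Shcbp1 and Gm3604 in each library, with wild type in blue (p42, p43, p56 from left to right) and ko in red (clones 1, 2, 3). Black marks give the mean ± SD (n = 3), and each axis starts at 0. The ko points lie below the wild-type points for Zfp951, Zfp958, Cers4 and Shcbp1 and above them for Zfp808, Zfp961 and Gm3604, whereas those of Zfp936 overlap.

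The next members by p-value were Zfp936, Zfp870, Zfp819, Zfp937, Zfp830, Zfp960, Zfp946 and Zfp959, and none was called. Zfp936 had 72.0, 94.7 and 92.4 CPM in ko and 67.7, 58.4 and 75.1 CPM in wild type, which overlap, with a log2 fold change of 0.37 (SE 0.11, adjusted p = 0.140). Without p56 it was called, at an adjusted p of 0.0043. For the other 7 of these, the log2 fold changes ran from -0.29 for Zfp870 to 0.28 for Zfp946, with adjusted p-values (edgeR) of 0.274 to 0.478. Zfp879 had the third largest fitted rise at 0.40 with an SE of 0.29, at 1.27 to 2.21 CPM in ko and 1.26 to 1.47 CPM in wild type. Zfp870 had the third largest fall, from 14.1 to 17.6 CPM in wild type to 12.5 to 12.8 CPM in ko.

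The members listed for a known role or for their use in the study were not called. Zfp809, which binds retroviral primer binding sites, had 13.6 to 14.97 CPM in ko and 12.2 to 13.8 CPM in wild type (log2 fold change 0.15, SE 0.11, adjusted p = 0.612, edgeR). Zfp932 had 26.8 to 28.3 CPM in ko and 24.4 to 26.2 CPM in wild type (0.11, SE 0.09, adjusted p = 0.635), and its near copy Gm15446, no member, had 0.30 with an SE of 0.33. Zfp819, which is known from pluripotent cells, had 27.4, 34.1 and 35.9 CPM in ko and 28.0, 27.4 and 26.0 CPM in wild type (0.26, SE 0.11, adjusted p = 0.281). Ko clone 1 was within the wild-type values of Zfp819, and clones 2 and 3 were above them. Zfp827, the counterpart of a telomere-bound human protein, had 0.85 times its wild-type level (log2 fold change -0.24, SE 0.15, adjusted p = 0.533), with its ko libraries just below the wild-type ones. Zfp943, which the study had taken up among its guide targets, had 5.63 to 6.38 CPM in ko and 5.29, 3.78 and 8.57 CPM in wild type (0.04, SE 0.25). Zfp800 had 5.45 to 6.99 CPM in ko and 5.14, 5.88 and 10.7 CPM in wild type (-0.24, SE 0.25). For both of these the spread of the wild-type libraries exceeded the difference, and p56 was the highest.

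The direction of the fitted changes was uneven. 41 of 54 members (75.9%) were fitted above 0, beside 6108 of all 12222 tested genes (49.98%) and 60.6% of the 246 tested genes from Zfp1 to Zfp799. The size was small, with a median log2 fold change of 0.07 over the members. The median of the members in single libraries, relative to the wild-type mean, was 0.09, 0.08 and 0.06 in ko clones 1, 2 and 3 and -0.01, -0.10 and 0.11 in p42, p43 and p56. All 3 ko values thus lay within the wild-type range, and the SD of this median between libraries of a group was 0.08. Members that are neighbours or duplicates are not independent, and no test was made of the share. All 3 ko libraries lay above all wild-type libraries for 8 members (14.8%), beside 9.67% of all tested genes, and below them for 5 members (9.26%), beside 10.2%. Zfp1 to Zfp799 gave a like share of 14.6% above and 6.10% below.

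**Figure D4:**
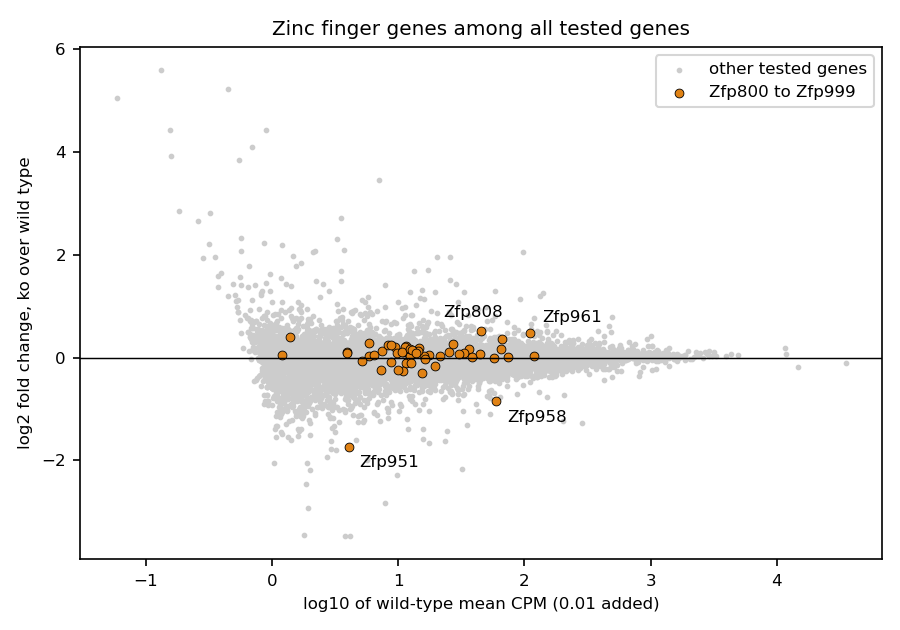
Log2 fold change of ko over wild type against the wild-type level (log10 of mean CPM with 0.01 added) for all 12222 tested genes (grey) and the 54 tested members (orange). Most members lie near 0 at middle levels, and Zfp951 and Zfp958 lie below the others.

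The wild-type library p56 differed from p42 and p43 in several members. Its log2 ratio to the mean of p42 and p43 had a median of 0.17 over the members, and it exceeded 0.5 in size for 6 of them. The same ratio over all tested genes was not set beside these values, so that they do not set the members apart from other genes. These were Zfp964 at 1.23, Zfp800 at 0.96, Zfp943 at 0.92, Zfp951 at 0.76, Zfp933 at 0.73 and Zfp931 at 0.66. In all 6, p56 was the higher side, although Zfp964 had only 13 counts in p56 and 7 and 5 counts in p42 and p43. Zfp933 had 14.4 CPM in p56 against 8.55 and 8.89 CPM in p42 and p43, and Zfp931 had 11.6 CPM against 8.40 and 6.23 CPM. The ko clones were closer to each other, at 10.9 to 11.7 CPM for Zfp933 and 10.2 to 10.5 CPM for Zfp931. Without p56, 5 members were called (Zfp808, Zfp936, Zfp951, Zfp958 and Zfp961), beside 385 of 12315 tested genes (3.13%) in the same fit.

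The members lie on 12 chromosomes, and 21 of them form 4 runs of 3 or more members with less than 1 Mb between neighbours. The run on chromosome 8 (69209018 to 69774911) holds Zfp930, Zfp868, Zfp964, Zfp869, Zfp963 and Zfp866, and its 5 tested genes had a median log2 fold change of 0.06 with 0 called. The largest run, on chromosome 17 (21565816 to 22867309), holds 8 members from Zfp948 to Zfp945, with a median of 0.05, 8 fitted above 0 and 0 called. The other run on chromosome 17 (32765496 to 33005457) holds Zfp871, Zfp811, Zfp870 and Zfp952, with a median of 0.00 and 0 called. The run on chromosome 13 (62129857 to 62579321) holds Zfp808, Zfp935 and Zfp934. Zfp808 was called there, whereas Zfp935 had 0.14 (SE 0.15) and Zfp934, which shares the most sequence with Zfp808, had 0.10 (SE 0.12). Zfp934 had 10.1 to 10.8 CPM in ko and 9.17 to 10.3 CPM in wild type. Both members called lower, Zfp951 and Zfp958, lie outside the runs.

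The neighbours of Zfp958 fell with it. Its nearest tested neighbours on both sides were called lower as well, namely Cers4, a ceramide synthase gene whose start lies 120 kb away, and Shcbp1, which encodes a partner of the adaptor Shc and starts 123 kb away on the other side. Cers4 had 19.8, 17.3 and 17.2 CPM in ko and 31.1, 32.0 and 25.9 CPM in wild type (log2 fold change -0.71, SE 0.11, adjusted p = 0.0037, edgeR). Shcbp1 had 82.2, 94.8 and 92.0 CPM in ko and 148.7, 144.2 and 162.5 CPM in wild type (-0.76, SE 0.08, adjusted p = 1.40e-04). The 3 changes were of like size, and in each gene the groups did not overlap. 11 of 16 alternative fits called Cers4, and all 16 called Shcbp1. The next tested gene, Ccl25 at 288 kb on the side of Cers4, had 2.03 to 3.44 CPM in ko and 2.16 to 3.15 CPM in wild type (0.11, SE 0.26). On the far side of Shcbp1 the next tested gene, Efnb2, starts 4004 kb from Zfp958.

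**Figure D5:**
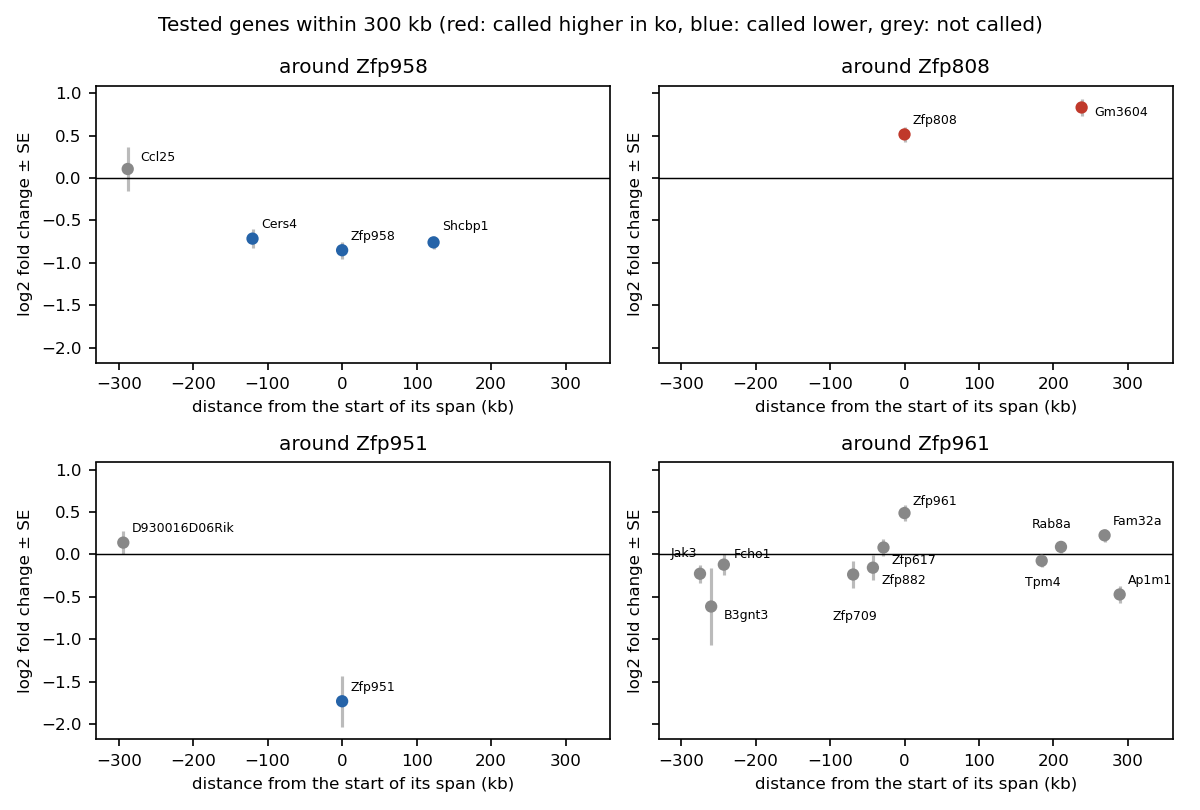
Log2 fold change of ko over wild type (± SE) of the tested genes within 300 kb of Zfp958, Zfp808, Zfp951 and Zfp961, by distance between the starts of the annotated spans in kb. Red genes were called higher, blue genes lower and grey genes not called. Cers4 (-0.71), Zfp958 (-0.85) and Shcbp1 (-0.76) lie together below 0, and Zfp961 (0.49) lies above its neighbours. The only other tested gene plotted around Zfp951 (-1.73) is D930016D06Rik (0.14), whose start lies 294 kb away.

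Zfp808 also had a neighbour that was called in the same direction. Gm3604, 238 kb away, had 22.1, 21.7 and 25.0 CPM in ko and 12.6, 12.5 and 13.6 CPM in wild type (log2 fold change 0.83, SE 0.10, adjusted p = 8.40e-04, edgeR), and 15 of 16 alternative fits called it. Gm3604 and Zfp808 share sequence, at 3.68% of the 50-base words of Zfp808. On its other side, BC052688 at 358 kb had -1.11 with an SE of 0.33 and was not called (adjusted p = 0.119). The nearest tested neighbours of Zfp951 were not called, with 0.14 (SE 0.14) for D930016D06Rik at 294 kb and 0.92 (SE 0.26, adjusted p = 0.103) for Gbp4 at 314 kb. Abcg3, Gbp8 and Gbp9 lie nearer to Zfp951 and did not pass the filter on low counts. Of the 10 other tested genes within 300 kb of Zfp961, none was called. Zfp617, 28.2 kb from it, had 0.08 (SE 0.10), and the member Zfp882, 42.4 kb from it, had -0.16 (SE 0.14). Ap1m1, 289 kb from it, was lower in each ko library, at 15.8 to 18.9 CPM against 23.2 to 24.3 CPM in wild type, without passing the threshold (-0.47, SE 0.10, adjusted p = 0.0273, edgeR).

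Counts on the opposite strand were few. The members had 279 opposite-strand counts in all, which is 0.291% of their counts on both strands, and 13 members had 0. Only Zfp865 had enough to be tested, with a log2 fold change of 0.87 (SE 0.47, adjusted p = 0.614, edgeR), and it was not called, beside 0.508% of 1378 genes called on that strand. By edgeR and by DESeq2, 0 members were called on the opposite strand, and 0 had an unadjusted p under 0.05 by edgeR.

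A list of 18 genes held Morc3, genes through which KRAB zinc finger proteins act, such as Trim28 and Setdb1, and other silencing factors. The latter include genes of histone H3.3, of its deposition and of DNA methylation. By edgeR's test on all 6 libraries, Morc3 was the only gene of the list that passed the test. Trim28 had 2773 to 3045 CPM in ko and 2597 to 2896 CPM in wild type (log2 fold change 0.12, SE 0.06, adjusted p = 0.435, edgeR), and Setdb1 had -0.07 (SE 0.08). Atf7ip, a partner of Setdb1, had 29.2, 24.1 and 24.8 CPM in ko and 17.6, 17.4 and 12.1 CPM in wild type, which did not overlap (0.73, SE 0.14, adjusted p = 0.0171), and 3 of 16 alternative fits called it. Atrx, which acts with Daxx in depositing histone H3.3, had 0.31 (SE 0.07, adjusted p = 0.0468) and was called by 2 of 16 alternative fits, and Daxx had -0.02 (SE 0.07). Resf1, which is listed in the files as 2810474O19Rik, had 0.26 (SE 0.07, adjusted p = 0.0734). Zinc finger genes outside the range that are known regulators were not called either, namely Zfp57 and Zfp445, which protect imprints, with -0.07 and 0.05, Zfp568 with 0.07, and Zfp42, a marker of pluripotent cells, with 0.15.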

How the data were processed

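Total RNA of 6 libraries was depleted of ribosomal RNA, made into strand-specific libraries and sequenced as paired-end reads. Per the labels and the methods of the study, the authors aligned reads to mm10 with STAR and deposited raw counts per gene, without normalization or pooling, in a column that ignores strand and 1 column per strand. The gene annotation is not given in the sources used here. Columns for the sense strand were used. Rows of unassigned reads stayed out of library sizes and tests.

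Genes were tested with edgeR 4.0.16 (quasi-likelihood, TMM, R 4.3.3, filterByExpr at min.count 10 and min.total.count 15), two-sided, with Benjamini-Hochberg adjustment over all 12222 tested genes and a threshold of 0.01, on 3 ko against 3 wild-type libraries with the group as the only term. The SE of a log2 fold change was taken as its absolute value over the root of F. DESeq2 1.42.0, limma-voom (limma 3.58.1), other scalings and filters, the counts that ignore strand and leaving out each library were alternatives. The fits were tested on simulated data. CPM and RPKM were computed here from the deposited counts. Gene positions and promoters came from RefSeq (GRCm38.p6), and exon lengths and coding sequences from GENCODE M21 of the same assembly as mm10.

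A C2H2 finger, its linker and the KRAB domain were found by residue patterns in translations. The members, the gene lists and the rules were chosen with earlier results of these data known. The text names the called members, the 12 members with the smallest p-values, the 3 largest changes each way, 8 genes listed for their known roles or for use in the study (of these, Zfp804a is no member, with a letter after its number and 0 counts), the 5 highest and 5 lowest, the nearest neighbours of called members, members tested on the opposite strand and 2 lists of related genes. ERV families were not analysed here.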

Additional observations from a re-analysis of the deposited data

How the results depend on the processing

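The number of members called was 3, and it was 4 by DESeq2, without a filter on low counts and at an adjusted p under 0.05, and 2 by limma-voom, which lost Zfp951. It was 2 without members that share over 20% of their 50-base words, a limit set after the data were seen. The other scalings and filters gave 3. Leaving out 1 library gave 1 to 5 members: 1 without ko clone 2 and without ko clone 3 (Zfp958 in both), 2 without ko clone 1 (Zfp958 and Zfp961), without p42 and without p43 (Zfp951 and Zfp958), and 5 without p56. Zfp808 was therefore not called when any one of the ko clones, p42 or p43 was left out. Zfp951 was likewise not called when any one of the ko clones was left out. The cause was not tested. Over all genes, 156 were called, against 254 by DESeq2, 286 without the filter and 331 at an adjusted p under 0.05. When 1 library was left out, 72 to 385 were called, with the highest number without p56. The share of tested genes called was 1.28% in the main fit, 1.79% by DESeq2 and 3.13% without p56. For the other fits no such share is given here, so that their counts of members say nothing particular to the members. No called direction reversed. The median log2 fold change of the members ran from 0.03 without p43 to 0.14 without p56, and the share fitted above 0 ran from 63.0% to 79.6%, with 43.4% to 51.1% for all genes. Members with few counts are limited by depth, and the SE of Zfp939 (90 counts) was 0.37 against 0.07 for Zfp945 (4264 counts). No paired analysis was possible because the ko clones are numbered 1 to 3 and the wild-type cultures carry other numbers, so that the labels share no replicate number.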
